A study of Mus musculus with 24 samples.

Results

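The genes described here are the TAM receptor tyrosine kinases *Tyro3*, *Axl* and *Mertk*, their ligands *Gas6* and *Pros1*, and 5 further genes of the recognition and uptake of apoptotic cells and debris, *Mfge8*, *Itgav*, *Itgb5*, *Lrp1* and *Megf10*. They were listed by name, as all array probes whose transcript identifier belongs to 1 of these 10 symbols. The rule gave 14 probes among the 56605 unique probes of the array, of which 34566 probes could be assigned to 23787 genes. *Tyro3*, *Axl*, *Pros1* and *Megf10* had 2 probes each and the other 6 genes had 1 probe. RNA came from the whole hippocampus of 48 male Swiss-Webster mice. Their age is given as 12 weeks, which is the age at the start of the experiment. The mice were then housed singly for a period of habituation before treatment. During a 12 h dark phase the treated mice drank corticosterone, the main glucocorticoid of rodents, at 100 µg/ml with 0.45% hydroxypropyl-β-cyclodextrin as solubilizer, whereas control mice drank cyclodextrin alone. Animals were killed in the first, the fifth or the ninth hour of the following light phase, with 8 control and 8 corticosterone-treated mice at each hour, every mouse being measured once. Control mice were brothers of treated mice and each group drew on several litters, but the labels do not tell which mice share a litter, so that litter could not be included in the test. The design asks which genes respond to overnight corticosterone and how long the response persists during the resting phase.

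TAM receptors sit on phagocytes and recognize dying cells indirectly. Their ligands, GAS6 and protein S, bind phosphatidylserine exposed on the outer face of a dying cell or of a synapse marked for removal and bridge it to the receptor. MFGE8 forms a parallel bridge from phosphatidylserine to integrins that contain the αv subunit. In the adult brain microglia and astrocytes use these routes to clear apoptotic newborn neurons of the dentate gyrus, debris and synapses, and MEGF10 and MERTK are the receptors through which astrocytes engulf synapses.

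Each of the 24 two-color arrays held 1 control mouse labelled with Cy3 and 1 corticosterone-treated mouse labelled with Cy5, and dyes were not exchanged on any array. A dye preference of a probe therefore cannot be told apart from the effect of corticosterone within an hour, whereas a constant preference cancels when the effect is compared between hours. Levels are normalized intensities in arbitrary units, and differences in level between probes carry no meaning here, the terms brightest and dimmer only naming the probes of a gene. A probe was called significant at an adjusted p under 0.05 in the separate channel test of limma over all 56605 probes. Between 60.8 and 67.2% of the spots in the Cy3 channel and between 64.0 and 73.4% in the Cy5 channel were well above background. In whole tissue, fewer cells of a type and less RNA per cell cannot be told apart. All 7 neuronal and all 5 hippocampal subfield markers examined were well above background on each control channel at each hour.

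An array stood apart for the members. On the fifth-hour array of replicate 7, on slide 3, 1473 of 20868 probes with a mean intensity of at least 200 lay more than 2-fold below their median over all arrays, against 5 to 141 probes, with a median of 15, on the other 23 arrays. These probes lay at one edge of the array, with 29.4% of the probes in the first 40 of 164 columns affected and 0.23% of those in the remaining columns. The array with 141 such probes, replicate 6 of the first hour and also on slide 3, had the same pattern to a lesser extent, with 2.72% of the probes in the first columns and 0.051% of the others. Replicate numbers only name the arrays of an hour in the order of their records. Of the members, the *Mertk* probe in column 8, the *Mfge8* probe in column 11 and the *Megf10* probes in columns 25 and 33 fall in this area. *Mertk* and the brightest *Megf10* probe were low in both channels of that array, whereas *Mfge8* lay at -0.16 and -0.22 and the dimmer *Megf10* probe at 0.35 and 0.03 on the log2 scale from the other arrays of that hour, in the control and the treated channel. Fifth-hour results for *Mertk*, *Mfge8* and the brightest *Megf10* probe are given with and without it. Of the probes outside it, the lowest departure was -0.64, in the control channel of the dimmer *Tyro3* probe.

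*Mertk* encodes the TAM receptor of resident macrophages, microglia and astrocytes, and it was the member with the largest response. Its level was higher in corticosterone-treated animals in the first and the fifth hours and did not differ detectably in the ninth hour. In the first hour, the lowest, median and highest intensity was 431, 566 and 619 in control animals and 746, 979 and 1407 in corticosterone-treated animals. Every treated animal lay above every control animal, a separation found for 0.912% of all probes in this direction. The lowest control animal came from the first-hour array of replicate 6, and without it the controls started at 486 and the log2 fold change was 0.79 (adjusted p = 0.00037). The mean rose from 549 ± 65.0 to 979.8 ± 208 (SD, n = 8), and the fitted log2 fold change was 0.82 (SE 0.156, limma separate channel test, adjusted p = 5.3e-05), which corresponds to 76.5%. In the fifth hour the corresponding values were 170, 532 and 661 in control animals and 235, 805 and 1051 in treated animals. The lowest value of each group came from the array with the dim edge, and without it the control animals ranged from 492 to 661 and the treated animals from 712 to 1051. With all 8 arrays the groups overlapped, and 0.575% of all probes were separate in this direction. Without that array, which was singled out after seeing the data, the groups were separate, as were 0.931% of all probes. The log2 fold change was 0.57 (SE 0.156, adjusted p = 0.0048), and it was 0.59 with an adjusted p of 6.1e-06 when that array was left out. In the ninth hour control animals ranged from 506 to 719 and treated animals from 518 to 643, so that the groups overlapped almost entirely. The log2 fold change was -0.06 with a 95% interval from -0.38 to 0.25 (adjusted p = 0.83). The log2 ratio of treated to control animal was above 0 on 8, 8 and 2 of 8 arrays in the first, the fifth and the ninth hour. Of all probes, 5.37 and 4.24% were above 0 on all 8 arrays of the first and the fifth hour. By slide, the mean log2 ratio was 0.60, 0.92 and 0.86 in the first hour, 0.84, 0.43 and 0.53 in the fifth, and -0.12, 0.26 and -0.27 in the ninth hour for slides 1 to 3. The call in the fifth hour was lost in a separate fit of that hour (adjusted p = 0.075) and without slide 1 (0.48, adjusted p = 0.096).

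**Figure D1:**
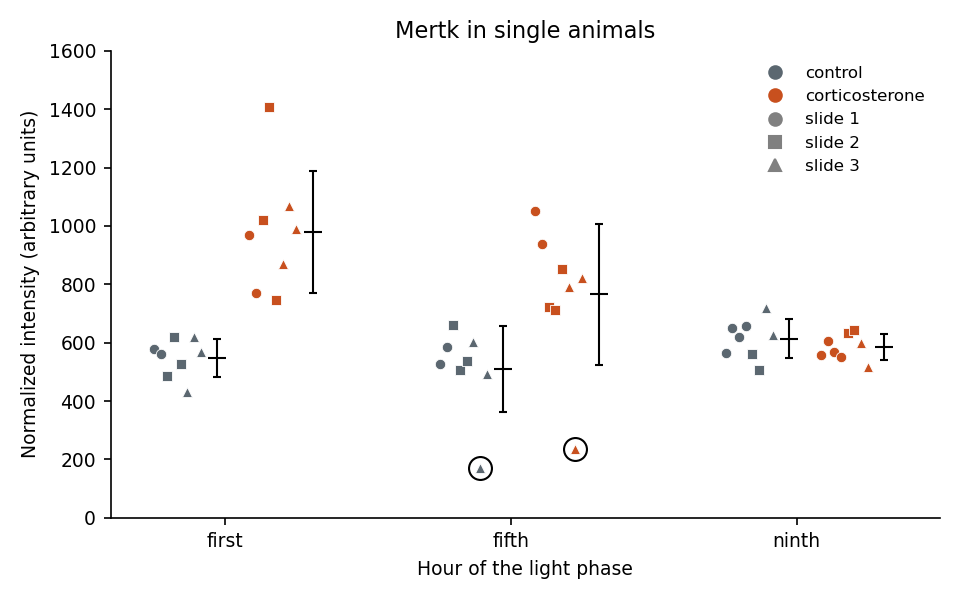
Normalized *Mertk* intensity (vertical axis, arbitrary units) of single control and corticosterone-treated animals by hour of the light phase; symbols give the slide, bars the mean ± SD of 8 animals, and the 2 rings mark the array with the dim edge. All treated animals of the first hour lie above all control animals, and the groups overlap in the ninth hour.

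The comparison between hours tested whether this response changed. The corticosterone effect on *Mertk* was smaller by 0.88 on the log2 scale in the ninth than in the first hour (log2 difference -0.88, SE 0.221, adjusted p = 0.015), and *Mertk* was the only one of the 14 member probes called in this comparison, in which 0.825% of all probes were called. The value was -0.88 (adjusted p = 2e-06) without the fifth-hour array with the dim edge and -0.86 (adjusted p = 0.037) without the first-hour array of replicate 6. From the fifth to the ninth hour the effect differed by -0.63 (adjusted p = 0.48, with 0.0848% of all probes called), and without the array with the dim edge by -0.65 with an adjusted p of 0.0074. The same difference was -0.63 with an adjusted p of 0.019 in the limma test on log ratios, which pairs the animals of an array. From the first to the fifth hour the difference was -0.25, with a 95% interval from -0.69 to 0.20, and none of the 14 probes was called (0.0389% of all probes). In corticosterone-treated animals alone, *Mertk* in the ninth hour lay below its level of the first hour by a log2 difference of -0.72 (SE 0.182, adjusted p = 0.0047), again the only member called (4.05% of all probes), and by -0.72 (adjusted p = 2.5e-07) and -0.74 (adjusted p = 0.0065) without the former and the latter array. From the fifth to the ninth hour it differed by -0.29 in treated animals (adjusted p = 0.55, 0.671% of all probes called), and without the array with the dim edge by -0.51 (adjusted p = 0.0023). No member was called in treated animals from the first to the fifth hour (0.544% of all probes), where *Mertk* differed by -0.43 (adjusted p = 0.36). In control animals, *Mertk* differed by 0.16 between the first and ninth hours (95% interval from -0.21 to 0.53, adjusted p = 0.84). No member was called in control animals between any hours, against 0.0053% of all probes from the first to the fifth, 0.542% from the first to the ninth and 0.0353% from the fifth to the ninth hour. This loss of effect between the first and ninth hours was no longer called without slide 1 (-0.89, adjusted p = 0.37) or without slide 2 (-0.93, adjusted p = 0.20), which leaves fewer arrays for the fit. The change in treated animals was likewise not called without slide 1 (-0.74, adjusted p = 0.16) or without slide 2 (-0.71, adjusted p = 0.090).

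The sequences before the start sites of *Mertk* and *Mfge8*, the genes with the largest rise and the largest fall of the members, are shown because glucocorticoids act on transcription. They are the 250 bases upstream of the RefSeq start site in build GRCm38.p6, written in the direction of the gene, *Mertk* at chr2:128698665-128698914 (plus strand) and *Mfge8* at chr7:79149061-79149310 (minus strand), with GC boxes (GGGCGG on either strand) in capitals.
Mertk: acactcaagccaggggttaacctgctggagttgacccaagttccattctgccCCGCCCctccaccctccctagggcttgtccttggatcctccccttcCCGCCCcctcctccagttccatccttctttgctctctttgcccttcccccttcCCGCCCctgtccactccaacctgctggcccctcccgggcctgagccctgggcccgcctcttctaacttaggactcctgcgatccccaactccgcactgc
Mfge8: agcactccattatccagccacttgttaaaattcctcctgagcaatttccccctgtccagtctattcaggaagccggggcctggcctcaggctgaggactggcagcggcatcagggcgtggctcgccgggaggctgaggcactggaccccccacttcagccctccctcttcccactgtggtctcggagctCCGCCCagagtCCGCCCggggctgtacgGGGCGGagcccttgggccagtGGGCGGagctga
Such windows were examined for 9 members. None was examined for *Megf10*, because a chromosome was left out of the member windows but not of the windows of all genes. GC boxes occurred 3 times before *Mertk* and 4 times before *Mfge8*, and in 8 of the 9 member windows, against 32.7% of all 32851 windows. The motif consists of G and C alone, and the 9 windows hold 54.8 to 73.2% of these bases against a median of 52.4% over all windows, so that nothing is read from the difference. The glucocorticoid receptor binds a palindrome of the hexamer TGTTCT, and neither this hexamer (either strand, 16.1% of all windows) nor the spaced core ACANNNTGT (5.84%) was present in any of the 9 windows. This says only that these letters are not in these windows.

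*Axl* encodes the TAM receptor that is usually raised in inflamed tissue and binds GAS6. Its brightest probe was lower in corticosterone-treated animals at all 3 hours. Intensities (lowest, median and highest) in the first hour were 3395, 3606 and 3795 in control animals and 2828, 3157 and 3610 in treated animals, and 7 of 8 treated animals lay below the lowest control animal. In the fifth hour they were 3089, 3601 and 4055 against 2773, 3089 and 3373, with 4 of 8 treated animals below all controls. The ninth hour gave 3377, 3721 and 4114 against 2875, 3337 and 3727, with 5 of 8 below. *Axl* fell by 0.18 (SE 0.0502, adjusted p = 0.0056), 0.21 (adjusted p = 0.0010) and 0.18 (adjusted p = 0.0069) on the log2 scale in the first, the fifth and the ninth hour, and the treated animal was the lower of its array on 8, 8 and 6 of 8 arrays. Of all probes, 4.94 and 4.53% were lower on all 8 arrays of the first and the fifth hour. By slide, the mean log2 ratio of *Axl* was -0.11, -0.21 and -0.19 in the first hour, -0.18, -0.20 and -0.25 in the fifth hour and -0.11, -0.19 and -0.32 in the ninth hour. The dimmer *Axl* probe, with a mean intensity of 39.5, had log2 fold changes of 0.20, -0.14 and -0.01, none of them called (adjusted p = 0.17, 0.26 and 0.95). The 2 probes therefore differed in sign in the first hour, and the mean of both probes gave a log2 fold change of 0.01 (adjusted p = 0.34), and in the ninth hour one of -0.10 (adjusted p = 0.063). The dimmer probe was well above background on 2 of 8 control channels in the first hour, when it was called higher without background correction (0.15, adjusted p = 0.010) and with the processed signals of the scanner software (0.42, adjusted p = 0.033). The call of the brightest probe in the first hour was lost without slide 2 (-0.16, adjusted p = 0.078) and without slide 3 (-0.17, adjusted p = 0.064), and in the ninth hour without slide 3 (-0.13, adjusted p = 0.12).

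*Tyro3* encodes the TAM receptor that is abundant in neurons. In the first hour its brightest probe lay between 7437 and 9709 (median 8739) in control animals and between 6077 and 9612 (median 7397) in treated animals, of which 4 lay below all controls. The range in the fifth hour was 8509 to 10330 (median 9135) in control animals and 6954 to 8919 (median 7970) in treated animals, 5 of them below all controls. The ranges in the ninth hour were 8215 to 10240 (median 9433) and 8070 to 9694 (median 8582). The level was thus lower with corticosterone in the first and the fifth hours, with overlap of the groups at each hour. *Tyro3* fell by 0.18 (SE 0.0590, adjusted p = 0.023) and 0.20 (adjusted p = 0.0074) on the log2 scale in the first and the fifth hour, and the difference of -0.10 in the ninth hour was not called (adjusted p = 0.22). By slide, the mean log2 ratio of *Tyro3* was -0.04, -0.19 and -0.25 in the first hour, -0.40, -0.12 and -0.16 in the fifth hour and -0.06, -0.14 and -0.15 in the ninth hour. The effect differed by 0.07 between the first and the ninth hour, which was not called either (adjusted p = 0.99). The dimmer probe, at a mean intensity of 27.1 and well above background on at most 3 of 8 channels of a group, gave values between -0.10 and -0.04 without a call. The mean of both *Tyro3* probes gave -0.11 and -0.15 in the first and the fifth hour, and neither was called (adjusted p = 0.12 and 0.052). Calls of the brightest probe were lost in part of the alternatives, in the first hour in a separate fit (-0.18, adjusted p = 0.080), without the array of replicate 6 (-0.15, adjusted p = 0.081), without slide 2 (-0.17, adjusted p = 0.12) and without slide 3 (-0.13, adjusted p = 0.31), and in the fifth hour without slide 1 (-0.14, adjusted p = 0.13) and without slide 3 (-0.23, adjusted p = 0.061).

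Of the ligands, *Gas6*, which encodes the bridging protein that activates all TAM receptors, did not differ detectably at any hour. Its control and treated medians were 6832 and 7082 in the first, 6752 and 6664 in the fifth and 6851 and 6814 in the ninth hour, and the groups overlapped each time. The log2 fold changes were 0.03, 0.04 and -0.01 (SE 0.0488), and the 95% intervals together reached from -0.11 to 0.14. *Pros1* encodes protein S, an anticoagulant plasma protein that is also the ligand of TYRO3 and MERTK. In the first hour its brightest probe lay between 1185 and 1377 (median 1279) in control animals and between 977 and 1572 (median 1055) in treated animals. A single treated animal of the first hour, replicate 8, lay above all control animals, and the other 7 lay below all of them. In the fifth hour the ranges were 989 to 1466 (median 1271) and 969 to 1211 (median 1064), and in the ninth hour 1069 to 1370 (median 1208) and 1014 to 1299 (median 1098). *Pros1* fell by 0.22 (SE 0.0666, adjusted p = 0.013) and 0.21 (adjusted p = 0.018) on the log2 scale in the first and the fifth hours, and the difference of -0.13 in the ninth hour was not called (adjusted p = 0.16). By slide, the mean log2 ratio of *Pros1* was -0.29, -0.27 and -0.12 in the first hour, -0.13, -0.15 and -0.32 in the fifth hour and -0.03, -0.19 and -0.28 in the ninth hour. The dimmer *Pros1* probe, with a mean intensity of 81.0, gave values of opposite sign at all 3 hours (0.10, 0.13 and 0.17), none called, the lowest adjusted p being 0.16. With the mean of both probes the *Pros1* calls were lost (-0.06, adjusted p = 0.25 in the first hour, and -0.04, adjusted p = 0.37 in the fifth hour). They were also lost without slide 1 (-0.20, adjusted p = 0.11, and -0.23, adjusted p = 0.056), in the first hour without slide 2 (-0.19, adjusted p = 0.16) and in the fifth hour without slide 3 (-0.14, adjusted p = 0.21).

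*Mfge8* encodes milk fat globule-EGF factor 8, the secreted bridge between phosphatidylserine and αv integrins, and its level was lower with corticosterone at every hour and on all 24 arrays. Of all probes, 4.94, 4.53 and 5% were lower on all 8 arrays of the first, the fifth and the ninth hour. In the first hour the lowest, median and highest intensity was 28160, 31300 and 36560 in control animals and 22420, 25700 and 29150 in treated animals, 6 of which lay below all controls. In the fifth hour the values were 26290, 29280 and 33480 against 20740, 24090 and 25940. The groups of the fifth hour did not overlap, which in this direction held for 0.465% of all probes. Both minima came from the array with the dim edge. Without it the ranges were 27720 to 33480 and 22810 to 25940, still apart, as were 0.896% of all probes in this direction. The log2 fold change was then -0.32 (adjusted p = 2.5e-06). The values of the ninth hour were 27880, 29740 and 32160 against 24980, 25840 and 28690, with 7 of 8 treated animals below all controls. *Mfge8* fell by 0.28 (SE 0.0474, adjusted p = 5.6e-06), 0.33 (adjusted p = 4.4e-07) and 0.19 (adjusted p = 0.0021) on the log2 scale. The mean log2 ratio of each slide lay between -0.37 and -0.17 at all hours. The effect of the ninth hour differed from that of the first by 0.09 and from that of the fifth by 0.13, and neither difference was called (adjusted p = 0.88 and 0.91). The call of the ninth hour was lost with the processed signals of the scanner software (-0.18, adjusted p = 0.082) and without slide 1 (-0.21, adjusted p = 0.053).

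Of the integrin subunits that bind MFGE8, *Itgb5*, the β5 subunit, was higher with corticosterone at all 3 hours, and *Itgav*, the αv subunit with which it pairs, was not called at any. *Itgb5* lay between 2266 and 2648 (median 2496) in control animals and between 2551 and 2889 (median 2725) in treated animals of the first hour. It lay between 2240 and 3156 (median 2620) and between 2622 and 3494 (median 3052) in the fifth hour, and between 2183 and 2769 (median 2525) and between 2685 and 3102 (median 2870) in the ninth hour. At each hour all 8 treated animals lay above the control median, and 5, 3 and 5 of them lay above all controls. The treated animal was the higher of its array on 7, 8 and 8 of 8 arrays. Of all probes, 4.24 and 5.78% were higher on all 8 arrays of the fifth and the ninth hour. The log2 fold changes were 0.14 (SE 0.0491, adjusted p = 0.022), 0.18 (adjusted p = 0.0035) and 0.19 (adjusted p = 0.0036). By slide, the mean log2 ratio of *Itgb5* was 0.08, 0.10 and 0.24 in the first hour, 0.34, 0.09 and 0.18 in the fifth hour and 0.17, 0.19 and 0.23 in the ninth hour. The calls were lost in the first hour without the array of replicate 6 (0.12, adjusted p = 0.083), without slide 2 (0.17, adjusted p = 0.070) and without slide 3 (0.09, adjusted p = 0.32), and in the fifth and ninth hours without slide 1 (0.13, adjusted p = 0.11, and 0.21, adjusted p = 0.073). *Itgav* had control and treated medians of 5346 and 5507, 5191 and 5334, and 4890 and 5364 in the 3 hours. Its log2 fold changes of 0.08, 0.02 and 0.09 (SE 0.0607) were not called, and the 95% intervals together reached from -0.10 to 0.22.

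*Lrp1* encodes a large endocytic receptor that takes up apolipoprotein E, protease complexes and calreticulin-marked cells, and *Megf10* an engulfment receptor with repeated EGF-like domains. Neither was called at any hour. The *Lrp1* medians were 4189 in control and 4275 in treated animals in the first, 4425 and 4592 in the fifth and 4428 and 4367 in the ninth hour, with log2 fold changes of 0.07, 0.04 and 0.02 (SE 0.0551). Without slide 2 the *Lrp1* value of the fifth hour was 0.17 with an adjusted p of 0.048. The brightest *Megf10* probe had medians of 997 and 992 in the first, 1054 and 1061 in the fifth and 966 and 1018 in the ninth hour. On the array with the dim edge the control animal had a *Megf10* intensity of 317 and the treated animal of 303, against 929 to 1183 and 1007 to 1173 on the other arrays of that hour. The log2 fold changes of *Megf10* were 0.03, 0.03 and 0.06 (SE 0.145) with 95% intervals that together reached from -0.26 to 0.35, and without that array they were 0.03, 0.05 and 0.06, with none called. Its dimmer probe, at a mean intensity of 27.5, was not well above background on any control channel.

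**Figure D2:**
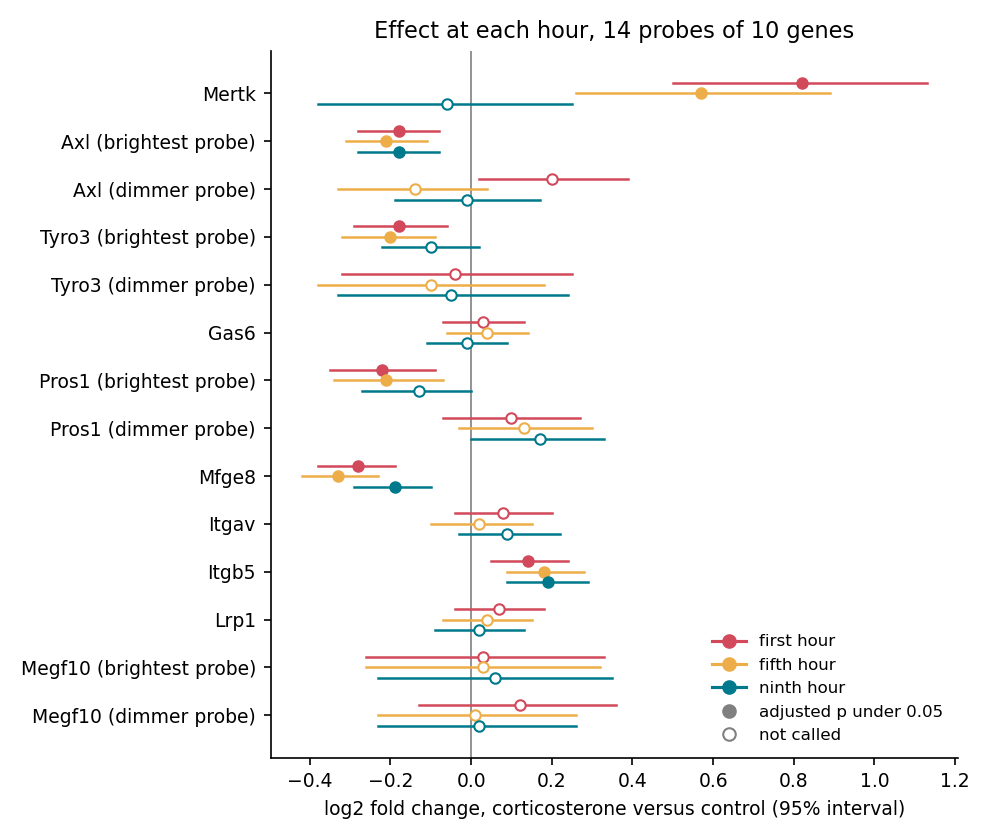
Log2 fold change of corticosterone-treated against control animals (horizontal axis) with its 95% interval for each of the 14 probes, by hour; filled points are called at an adjusted p under 0.05. *Mertk* lies far to the right in the first and the fifth hours and near 0 in the ninth, whereas *Mfge8* and the brightest *Axl* probe lie below 0 and *Itgb5* above 0 at all 3 hours.

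Over all 14 probes, 2 were called higher and 4 lower with corticosterone in the first hour, against 9.06 and 8.45% of all probes. The called probes were *Mertk* and *Itgb5*, higher, and *Axl*, *Tyro3*, *Pros1* and *Mfge8*, lower. In the fifth hour the same 6 probes were called in the same directions, against 8.94% of all probes higher and 9.08% lower. In the ninth hour *Itgb5* was called higher (7.3% of all probes) and *Axl* and *Mfge8* lower (6.68% of all probes). In absolute size, the log2 fold changes of the 14 probes had medians of 0.13, 0.14 and 0.08, against 0.13, 0.13 and 0.12 over all probes of the array. The members therefore did not share a direction, and *Mertk* was the only member with a log2 fold change of more than 0.50 in either direction at any hour.

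**Figure D3:**
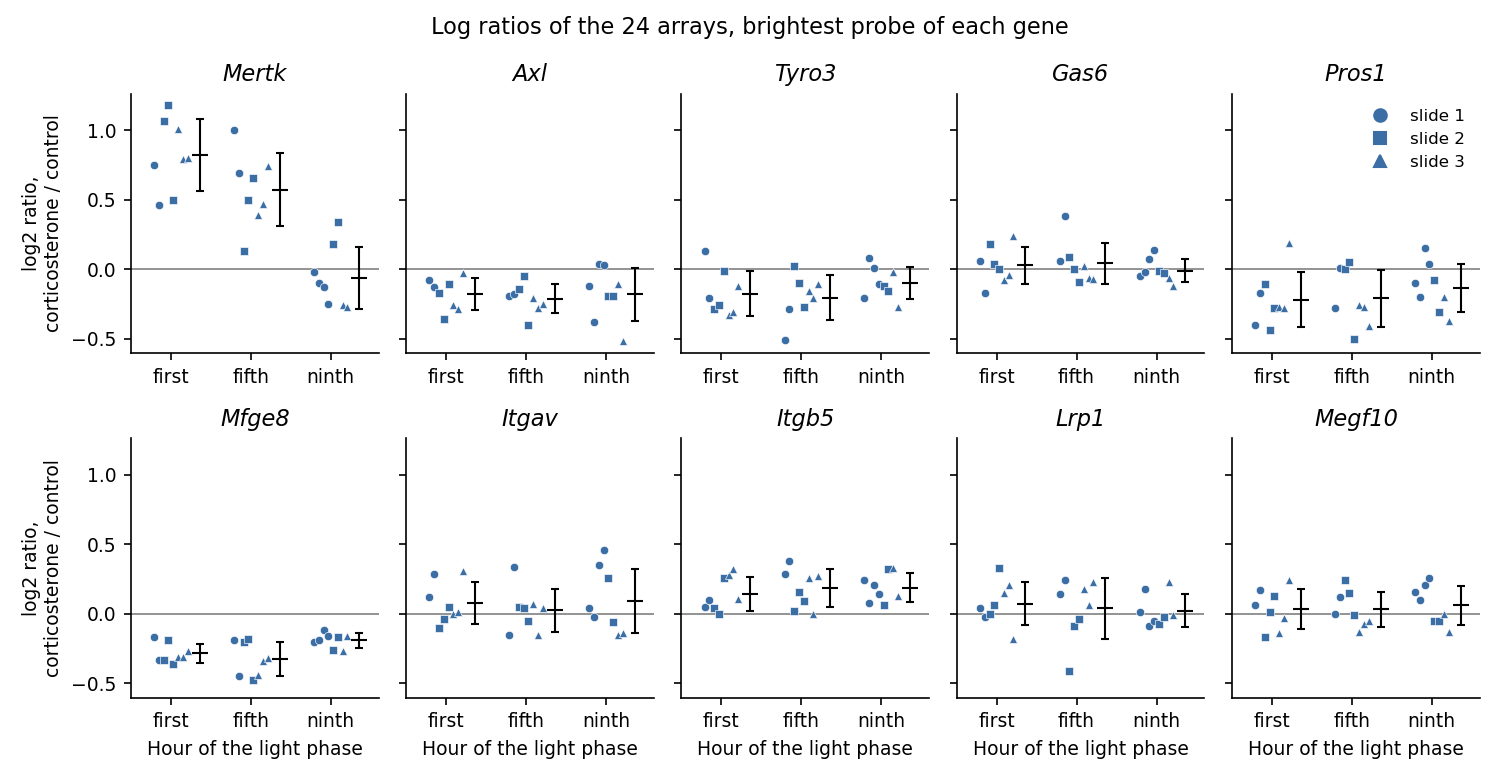
Log2 ratio of the corticosterone-treated to the control animal on each of the 24 arrays (vertical axis) for the brightest probe of each gene, by hour; symbols give the slide and bars the mean ± SD of 8 arrays. The *Mertk* ratios fall from 0.46 to 1.18 in the first hour to between -0.27 and 0.34 in the ninth, whereas all *Mfge8* ratios are below 0.

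**Figure D4:**
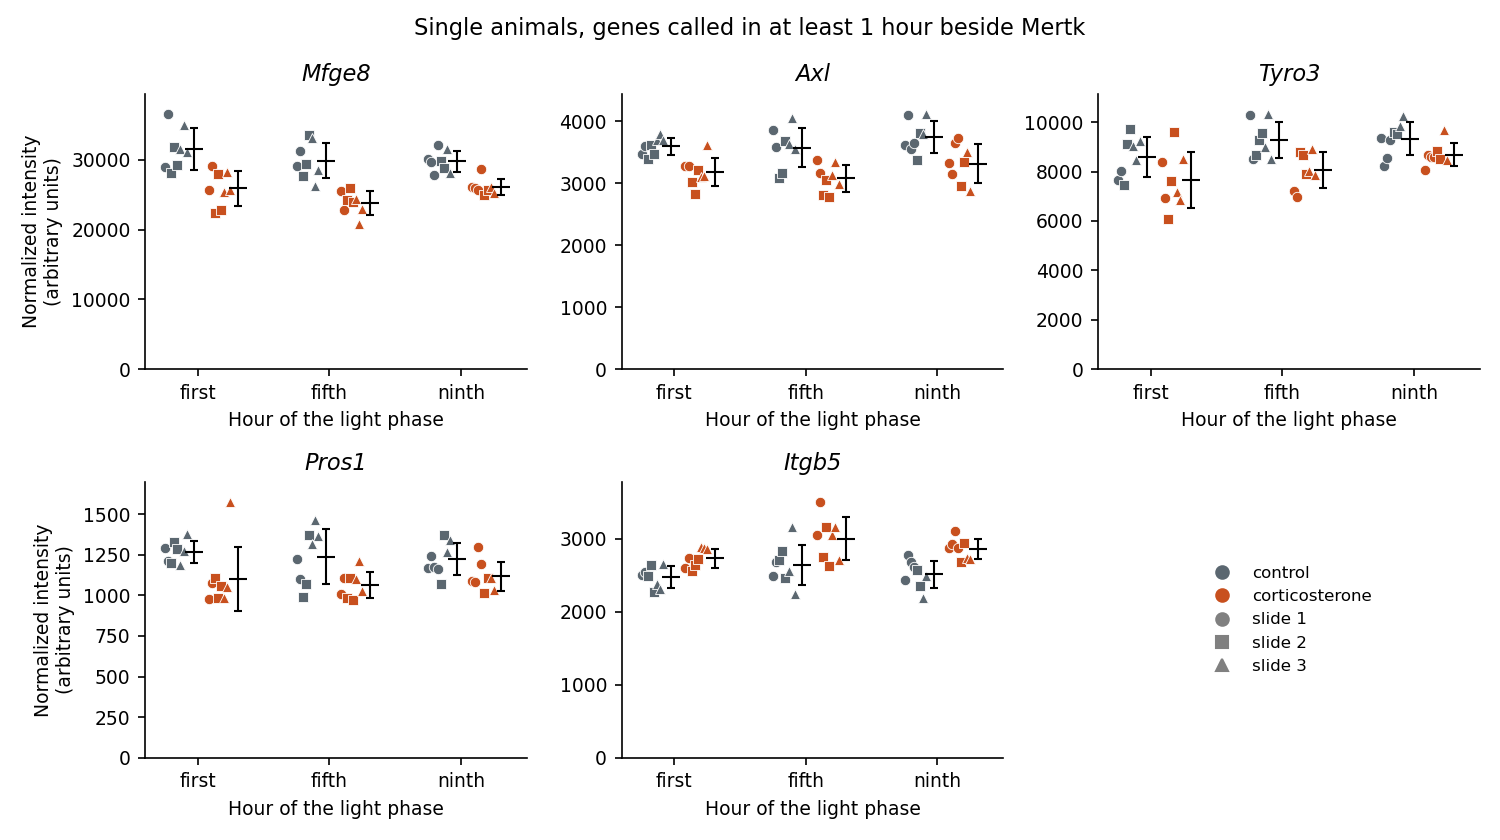
Normalized intensity (vertical axes, arbitrary units, each from 0) of single animals for the 5 genes called in at least 1 hour beside *Mertk*; symbols give the slide and bars the mean ± SD of 8 animals. The *Mfge8* groups of the fifth hour do not overlap, and a single treated *Pros1* animal of the first hour, at 1572, stands above the rest of its group.

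Likeness to *Mertk* was described by the Pearson correlation of log2 ratios over the 24 arrays, among 15406 genes with a mean intensity of at least 50. The arrays share the hours and slides of the design, and the correlations are given without a test. The closest genes were *Spns2*, a sphingosine-1-phosphate transporter (r = 0.93), *Gpt2*, a mitochondrial alanine aminotransferase (0.92), *Paqr5*, a membrane progestin receptor (0.92), *Fkbp5*, a glucocorticoid-induced co-chaperone of the glucocorticoid receptor (0.92), and *Pnpla2*, the adipose triglyceride lipase (0.91). These 5 genes were chosen on the same arrays, so that their calls only describe the pattern and are not separate evidence. All 5 were called higher in the first and the fifth hours, *Fkbp5* with log2 fold changes of 0.61 and 0.32 (adjusted p = 1.5e-07 and 0.0029). In the ninth hour *Spns2*, *Paqr5* and *Fkbp5* were called lower with corticosterone, at -0.17, -0.54 and -0.26, whereas *Gpt2* (-0.08) and *Pnpla2* (0.17) were not called. None of the other members came near this pattern, their correlations with *Mertk* lying between 0.21 for *Gas6* and -0.49 for *Tyro3*.

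A list of 75 further genes of apoptotic cell clearance, covering phosphatidylserine exposure, find-me signals, other bridging molecules and complement, other receptors, engulfment signalling, phagosome maturation and the shedding and expression of TAM receptors, was represented by 124 probes. Of these, 15 were called higher and 13 lower in the first hour, 14 and 16 in the fifth, and 8 and 8 in the ninth hour, with median log2 fold changes of 0.00, 0.00 and 0.02. These are 12.1 and 10.5% of the list in the first hour (9.06 and 8.45% of all probes), 11.3 and 12.9% in the fifth (8.94 and 9.08%) and 6.45% each in the ninth (7.3 and 6.68%). Over the alternatives, the calls of the list in both directions together ranged from 2 to 33, from 0 to 33 and from 0 to 20 in the 3 hours. Of 30 probes for other receptors of apoptotic cells and debris, 6, 9 and 5 were called higher and 2, 3 and 2 lower in the 3 hours. Several of the higher calls are repeat probes of a gene, *Ager* giving 3, 3 and 3 of them and *Stab2* 2, 2 and 0, genes singled out after their values were seen. The brightest *Ager* probe was not called at any hour (0.00, 0.04 and 0.03). Of 24 probes for engulfment signalling, 3, 1 and 0 were called higher and 5, 6 and 3 lower. Whether these roles differ was not tested. Genes whose brightest probe was called in the same direction at all hours were *Dock1*, *Anxa5* and *Lamp1*. *Dock1*, the exchange factor that activates RAC1 downstream of engulfment receptors, was lower on all 24 arrays and fell by 0.40, 0.29 and 0.14 on the log2 scale (adjusted p = 5.3e-09, 5.9e-06 and 0.025). Of all probes, 4.94, 4.53 and 5% were lower on all 8 arrays of the 3 hours. The *Dock1* effect was 0.26 closer to 0 in the ninth than in the first hour (adjusted p = 0.027). *Anxa5*, encoding the phosphatidylserine-binding protein annexin A5, was higher by 0.21, 0.21 and 0.24 (adjusted p = 0.00021, 0.00013 and 4.4e-05). *Lamp1*, a membrane protein of lysosomes, was higher by 0.17, 0.10 and 0.10 (adjusted p = 6.6e-05, 0.013 and 0.020).

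Markers were examined for the cell types that could carry these genes. Over all probes, 9.06, 8.94 and 7.3% were called higher and 8.45, 9.08 and 6.68% lower in the 3 hours. Of 10 astrocyte markers, 4 were called higher and 1 lower in the first hour, 4 and 3 in the fifth, and 3 and 2 in the ninth, with median log2 fold changes of 0.07, -0.02 and -0.06. *Aldh1l1*, a folate enzyme of astrocytes, was higher by 0.57, 0.51 and 0.42, whereas *Aqp4*, the water channel of their endfeet, fell by 0.75, 0.85 and 0.69 on the log2 scale. *Gjb6*, the gap junction protein connexin 30, had log2 fold changes of 0.72, 0.45 and -0.07, and its effect differed by -0.80 between the first and ninth hours (adjusted p = 2.4e-07). *Glul*, glutamine synthetase, had values of 0.37, 0.25 and 0.14 and a difference of -0.23 (adjusted p = 0.046). These 4 markers were singled out after their values were seen. Of the other markers, by their brightest probes, *Aldoc* was called higher at all hours (0.21, 0.14 and 0.15). *Gja1*, another connexin (-0.01, -0.17 and -0.23), was called lower in the fifth and ninth hours, and *S100b* (0.03, -0.21 and -0.14) in the fifth. *Gfap*, *Slc1a2* and *Slc1a3* were not called at any hour. The summed intensity of the 10 markers ranged from 131000 to 161100 in control and from 153400 to 185600 in treated animals in the first hour, from 134500 to 157300 and from 152400 to 167800 in the fifth, and from 136400 to 150300 and from 146200 to 156300 in the ninth hour. A sum of probe intensities follows its brightest probes, here *Aldoc* and *Glul* with mean intensities of 72570 and 25270, and it is not a measure of the whole list. Of 10 microglial markers, none was called higher and 3 lower in the first hour, 1 and 2 in the fifth, and none in the ninth, and their sum ranged from 53270 to 75680 in control and from 55430 to 69480 in treated animals in the first hour. Median log2 fold changes of the microglial markers were -0.02, -0.04 and -0.06. The microglial markers called in the first hour were *Aif1* (-0.44), *P2ry12* (-0.49) and *Cx3cr1* (-0.20). In the fifth hour they were *Aif1* (-0.39), *P2ry12* (-0.61) and, higher, *Itgam* (0.27). All markers of both lists were well above background on every control channel. Of 7 neuronal markers, none was called in the first hour, 3 were called higher in the fifth and 2 in the ninth, and none was called lower at any hour, with medians of 0.02, 0.14 and 0.11. How these markers relate to the lower *Tyro3* values of the first and the fifth hour was not tested. Of 5 markers of border macrophages, 3 were above background on every control channel at each hour, with 1 called higher and 1 lower in the first hour, 1 lower in the fifth and none in the ninth. Of 7 endothelial markers, 2 were called higher and 3 lower in the first hour, 2 and 2 in the fifth, and 1 and 1 in the ninth. The part of these cell types in the changes of the members was not tested.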

How the data were processed

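Total RNA of single hippocampi was hybridized to two-color Agilent mouse arrays, and the authors deposited the output of Agilent Feature Extraction 10.7.3.1 with spot intensity for Cy3 (vehicle) and Cy5 (corticosterone), along with a table of log2 ratios that the authors had normalized. That table lay closest to normexp and loess without quantile scaling (median absolute difference 0.00119), with array medians from 0.00239 to 0.00889, and served as an alternative. Median spot intensities were corrected with normexp (offset 50 for p-values, 0 for fold changes, SE and printed levels), normalized by loess within and quantile between arrays, and averaged over copies of a probe, without control spots (3671 of 62976) and outlier spots (80 to 276 per array). No spot was saturated. The separate channel test of limma 3.58.1 (R 4.3.3, statmod 1.5.0) treated the channels of an array as correlated (0.279) and compared groups over 56605 probes with Benjamini-Hochberg adjustment. Reads are not involved, and the number of arrays, 8 per hour, limits the precision. In data simulated for the first-hour comparison (10000 probes, 200 of them changed), 81% of log2 changes of 0.25 and 97% of those of 0.5 were recovered. Of the calls, 8 were false, which is 4.3% of them. The simulated errors were normal, without slide, dye or edge effects, so that these shares need not hold for the real arrays.

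Probes were named through their accessions in RefSeq tables. Each gene is represented by its brightest probe, and all member probes are given. Other pathway genes are named if their brightest probe, with a mean intensity of at least 50, passed the test at all hours in one direction. Likeness names the 5 genes with the highest correlation. Members and lists were chosen with earlier results of these data known. Slides were examined as batches, since each of the 3 slides holds arrays of all hours. Alternatives changed the background correction, normalization, test, slides, filters and probe summary.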

Additional observations from a re-analysis of the deposited data

Results flagged for a closer look

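In 13 of 84 groups of 8 animals and a probe, 15.5%, the highest or lowest animal stood far from the rest of its group by Dixon's criterion, which chance alone meets in about 1 of 20 groups. Of these, 4 came from the fifth-hour array with the dim edge, with *Mertk* at 169.7 in the control animal (others 492.4 to 660.9) and 235 in the treated animal (others 712.2 to 1051), and *Megf10* at 316.9 (others 928.6 to 1183) and 302.8 (others 1007 to 1173).

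Among treated animals, *Pros1* reached 1572 in the first hour against 976.7 to 1109 in the others, and *Itgav* reached 6849 against 4886 to 5691. Both values came from the same animal, on the array of replicate 8. In the ninth hour *Tyro3* reached 9694 against 8070 to 8831, *Mfge8* 28690 against 24980 to 26160, *Lrp1* 5001 against 4172 to 4533, and the dimmer *Axl* probe 55.71 against 30.78 to 42.28. Among control animals, *Gas6* reached 7759 in the first hour against 6280 to 6941. *Lrp1* was lowest at 3462 in the first hour against 4100 to 4229, and at 3753 in the ninth hour against 4321 to 4577. The *Lrp1* value of 3462 came from slide 2, and the *Mfge8* value and the *Lrp1* value of 5001 from slide 1. All other flagged values came from slide 3, which held 3, 3 and 2 arrays of the 3 hours. Of these, the ninth-hour *Tyro3*, *Axl* and *Lrp1* values shared the array of replicate 7. The *Gas6* value came from the first-hour array of replicate 6.

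The effect of corticosterone on *Mertk* in the ninth hour minus that in the first was -0.88 on the log2 scale in a test of the difference itself (adjusted p = 0.015, limma separate channel test).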

How the results depend on the processing

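No animal could be paired between hours because every mouse was measured once. Litters could not be matched between hours either, because the labels do not give them. The replicate numbers used here follow the order of the records. The test on log ratios pairs the animals of an array. A fit with the slide as a block changed no call of a member probe. The number of member probes called higher in the first hour, 2, became 1, 1 and 0 within slides 1 to 3. It became 1 without slide 2, without slide 3 or without the first-hour array of replicate 6. It rose to 3 without background correction or with processed signals, through the dimmer *Axl* probe. The number called lower, 4, became 0, 0 and 1 within slides, 1 without slide 2 and 2 without slide 3. Over all probes, 9912 calls of the first hour became 300, 1265 and 704 within slides 1 to 3. They were 4534 without slide 2, 5258 without slide 3 and 7659 without the first-hour array of replicate 6. Without background correction they were 10213, and with processed signals 11659. In the fifth hour, the 2 called higher became 1 in a separate fit and 0 within slide 2, within slide 3 or without slide 1. They became 3 without slide 2, through *Lrp1*. The 4 called lower became 1, 0 and 1 within slides and 2 without slide 1 or slide 3. Over all probes, 10203 calls of the fifth hour became 6859 in a separate fit and 1569, 324 and 1490 within slides. They were 5938, 7071 and 4075 without slide 1, slide 2 and slide 3. In the ninth hour, the 1 called higher became 0 within each slide and without slide 1. The 2 called lower became 0 within each slide and 1 without slide 1, without slide 3 or with processed signals. Over all probes, 7917 calls of the ninth hour became 1534, 16 and 9 within slides 1 to 3. They were 1829 without slide 1, 4998 without slide 3 and 8295 with processed signals. For the change of the effect between hours, 1 call became 2 with processed signals, with the test on log ratios, with the authors' log2 ratios or without the fifth-hour array of replicate 7, and 0 within slide 2, within slide 3, without slide 1 or without slide 2. In treated animals between hours, 1 call became 2 within slide 1 or without that array, and 0 within slide 2, within slide 3, without slide 1 or without slide 2. Fits by slide hold fewer arrays. Values of single probes that were called kept direction and call in 269 recomputations, kept the direction without the call in 74, and reversed in 1: *Axl* in the first hour, at 0.01 with the mean of both probes (adjusted p = 0.34). Leaving out the array with the dim edge, or the first-hour array of replicate 6, was chosen after seeing the data.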
